A study of Homo sapiens with 51 samples.

Results

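Fibronectin (FN1) and 5 integrin genes, ITGA5, ITGAV, ITGB1, ITGB3 and ITGA11, were followed across all 17 groups of an RNA sequencing study of human mammary epithelial cells. The genes were taken by symbol, which gave 6 of the 24033 genes listed. HMLE is an immortalized mammary epithelial line, labelled wild type, and HMLE-TWIST1 is the same line overexpressing TWIST1, a transcription factor known for driving epithelial to mesenchymal transition. Each group held 3 libraries, 51 in all. In both lines, cells received DMSO, the solvent, for 48 h (day 2), or for 15 h followed by a wash and 48 h in fresh medium (day 4). Both lines also received scramble siRNA or DsiRNA against SUV39H1/H2 for 48 h (day 2), or for 48 h followed by 48 h in fresh medium (day 4). SUV39H1 and SUV39H2 are histone methyltransferases that place the repressive H3K9me3 mark, and chaetocin is a fungal compound used as an inhibitor of them. HMLE-TWIST1 cells alone received chaetocin, at 100, 150, 200 or 500 nM for 48 h, or at 80 nM for 15 h followed by a wash and 48 h in fresh medium. Which promoter drives TWIST1 and whether the line is 1 clone are not given in the sources used here. The labels do not say that replicates were separate cultures, so p-values measure the spread between these libraries, which may be technical.

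Fibronectin is a large secreted glycoprotein that cells assemble into fibrils in the extracellular matrix, and it is among the best known genes induced when epithelial cells become mesenchymal. Integrins are cell surface receptors made of 1 alpha and 1 beta chain, and they tie the matrix outside the cell to actin inside it. The alpha 5 chain (ITGA5) with beta 1 (ITGB1) is the classical fibronectin receptor, which binds the RGD sequence and drives fibril assembly. The alpha V chain (ITGAV) pairs with several beta chains, among them beta 1 and beta 3 (ITGB3), and also binds RGD ligands, fibronectin and vitronectin included. The alpha 11 chain (ITGA11) pairs with beta 1 as a receptor for fibrillar collagen and is not counted among the classical fibronectin receptors.

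The sequence just upstream of the start is shown for FN1, the member with the most reads, and ITGA11, which differed most between the lines. Both are the 250 bases before the first transcript start, 5′ to 3′ on the gene's own strand, from RefSeq (GRCh38.p14), while the study's files were made on hg19. FN1 lies at chr2:215436069-215436318 on the minus strand. Capitals mark TGACGTCA, the cAMP response element motif, 183 to 176 bases before the start, and CCAAT, the CCAAT box, 162 to 158 bases before it.
FN1: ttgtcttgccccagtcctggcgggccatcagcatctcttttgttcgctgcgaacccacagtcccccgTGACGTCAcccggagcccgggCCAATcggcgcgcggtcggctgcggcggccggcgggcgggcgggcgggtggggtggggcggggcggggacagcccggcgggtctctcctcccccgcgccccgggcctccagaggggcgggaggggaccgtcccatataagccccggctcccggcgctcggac
ITGA11 lies at chr15:68432164-68432413 on the minus strand. Capitals mark 2 matches to CANNTG, the E-box, the motif type that TWIST1 and related factors bind: CAGGTG, 130 to 125 bases before the start, and CAGCTG, 29 to 24 bases before it.
ITGA11: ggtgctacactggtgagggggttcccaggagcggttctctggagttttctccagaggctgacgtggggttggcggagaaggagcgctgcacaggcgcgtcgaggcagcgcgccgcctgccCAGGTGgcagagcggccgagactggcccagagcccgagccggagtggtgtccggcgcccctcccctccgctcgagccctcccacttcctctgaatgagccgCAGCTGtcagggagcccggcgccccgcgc
Both strands were searched for TGACGTCA, CCAAT and CANNTG, which do not overlap one another in these windows. Over the 35116 upstream regions in the table, 1.65% held TGACGTCA, 32.0% held CCAAT and 61.8% held CANNTG, so an E-box match is common. FN1 held no CANNTG match, ITGA5 held 1 (CAGCTG), and neither of the ITGB1 windows held any of the 3 motifs. ITGAV held none of them before its first listed start and 1 CANNTG match (CAAATG) before its second. No upstream sequence was available for ITGB3, so 5 of the 6 members were searched. A match is a string of letters in this window and was not tested for binding.

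Between 7897045 and 15662385 reads were assigned to genes per library, and the precision of low values is set by that number. Levels within a gene are given as CPM, a library's reads of the gene scaled to an adjusted library total. That total is the assigned reads times a scaling factor from trimmed means of M values, so CPM is not a share of reads. Where genes are compared, levels are given as RPKM, which also takes the gene's length into account. Differences are log2 fold changes with their standard errors from limma on log2 CPM, with p-values adjusted over all genes tested by Benjamini-Hochberg and called under 0.05. TWIST1 itself averaged 5.11 to 14.0 CPM over the HMLE groups and 233 to 609 CPM over the HMLE-TWIST1 groups. SUV39H1 and SUV39H2 passed the test as lower in all 4 knockdown comparisons, with SUV39H1 at 12.7 CPM under scramble and 4.71 under knockdown in HMLE-TWIST1 at day 2. In HMLE at day 2, SUV39H1 averaged 6.48 and 2.56 CPM. The SUV39H2 means at day 2 were 8.85 and 6.60 CPM in HMLE and 45.6 and 19.9 CPM in HMLE-TWIST1, so its level and the size of its drop differed between the lines. The epithelial label held for HMLE, where 13 epithelial markers summed to 10885 to 26241 CPM, and went against the HMLE-TWIST1 libraries, where they summed to 86.6 to 270 CPM and 10 mesenchymal markers to 3991 to 10155 CPM. Leukocyte, endothelial and platelet markers stayed at 14.8 CPM or less in sum, and adipocyte markers reached 447 CPM in HMLE scramble day 4 libraries. In such bulk RNA, fewer cells of a type and less RNA per cell cannot be told apart.

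**Figure D1:**
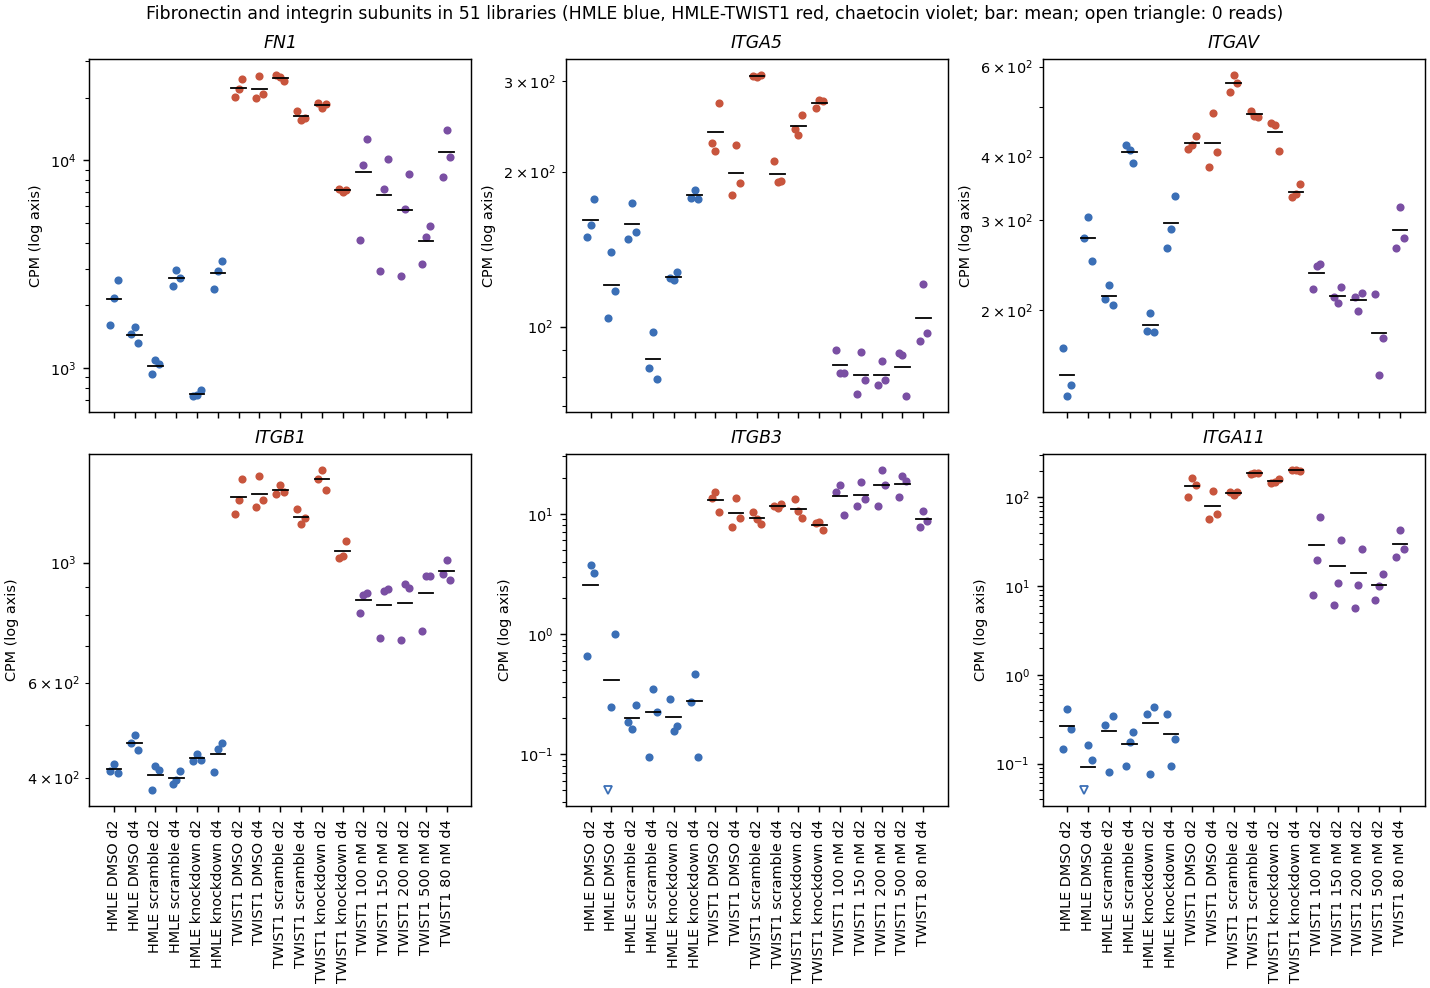
Level of each of the 6 genes in CPM (log axis) in the 17 groups, with 1 point per library, a bar at the group mean and an open triangle for a library with 0 reads. HMLE groups are blue, HMLE-TWIST1 groups red and chaetocin groups violet, and ITGB1, ITGB3 and ITGA11 were higher in every HMLE-TWIST1 group than in every HMLE group.

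FN1 had the most reads of the 6 genes in all groups and took up to 2.56% of a library's reads. Per length it led in 15 of the 17 groups, and ITGB1 exceeded it in HMLE scramble day 2 (61.3 against 54.9 RPKM) and HMLE knockdown day 2 (67.6 against 41.2 RPKM). Its group means ran from 749 ± 25.9 CPM (SD, n = 3) in HMLE knockdown day 2 to 24974 ± 817 CPM (SD, n = 3) in HMLE-TWIST1 scramble day 2. The 3 highest groups, HMLE-TWIST1 scramble day 2, DMSO day 2 and DMSO day 4, overlapped, as did 10 of the 16 pairs of neighbours in the order. HMLE-TWIST1 knockdown day 2 followed at 18484 ± 595 CPM (SD, n = 3) and scramble day 4 at 16319 ± 873 CPM (SD, n = 3), each apart from its neighbours. The 500 nM chaetocin group had the lowest mean of the HMLE-TWIST1 groups, 4073 ± 848 CPM (SD, n = 3), and its lowest library, 3143 CPM, lay below the highest library of HMLE knockdown day 4, 3269 CPM.

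The receptors followed other orders. ITGA5 was highest in HMLE-TWIST1 scramble day 2, at 307 ± 1.32 CPM (SD, n = 3), and lowest at 200 nM chaetocin, at 80.5 ± 4.69 CPM (SD, n = 3). ITGAV was also highest in HMLE-TWIST1 scramble day 2, at 557 ± 20.7 CPM (SD, n = 3), but lowest in HMLE DMSO day 2, at 149 ± 17 CPM (SD, n = 3). Neighbouring groups overlapped in 12 of 16 pairs for ITGA5, 11 for ITGAV, 12 for ITGB1, 15 for ITGB3 and 12 for ITGA11, so the middle of each order is not resolved. Per length, HMLE-TWIST1 cells under DMSO for 2 days held FN1 at 1269 RPKM, ITGB1 at 213, ITGAV at 51.1, ITGA5 at 31.1, ITGA11 at 23.4 and ITGB3 at 2.60 RPKM. In HMLE under the same treatment, the levels were 125 RPKM for FN1, 68.5 for ITGB1, 21.5 for ITGA5, 18.4 for ITGAV, 0.526 for ITGB3 and 0.0475 for ITGA11. There the mean of ITGA5 was above that of ITGAV, while in the other 5 HMLE groups ITGAV was above ITGA5, for example at 34.1 against 16.1 RPKM under DMSO at day 4.

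The first comparison set HMLE-TWIST1 against HMLE under the same control treatment, to ask how the line overexpressing TWIST1 differed from HMLE. The ligand and all 5 receptor chains were higher in HMLE-TWIST1 under each of the 4 control treatments. Beside these 6 of 6, 47.4% of all genes tested were called under DMSO at day 2 (24.1% as higher and 23.2% as lower), 66.9% at DMSO day 4 (33.5% and 33.4%), 69.0% at scramble day 2 (35.7% and 33.3%) and 74.4% at scramble day 4 (37.6% and 36.8%). The median log2 difference of the 6 genes under DMSO at day 2 was 2.09, against 0.01 over all genes tested. ITGA11 and ITGB3 had few reads in HMLE and had enough reads to be tested only through the HMLE-TWIST1 libraries. Their direction was thus largely fixed by that requirement, and they add little to the 6 of 6 or the median. FN1, ITGA5, ITGAV and ITGB1 were higher under each treatment with reads in both lines.

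FN1 held 1608, 2178 and 2633 CPM in the 3 HMLE DMSO day 2 libraries and 20247, 21983 and 24612 CPM in the HMLE-TWIST1 ones. At DMSO day 4 the HMLE libraries held 1455, 1567 and 1314 CPM and the HMLE-TWIST1 libraries 19842, 25406 and 20851 CPM. All HMLE-TWIST1 libraries lay far above all HMLE libraries in both. The fitted ratio was 14.8-fold at DMSO day 4 (log2 3.89, SE 0.18, adjusted p = 5.94e-08), 25.2-fold at scramble day 2 and 6.03-fold at scramble day 4 (log2 2.59, SE 0.10, adjusted p = 1.6e-10).

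ITGB1, the shared partner chain, held 412, 425 and 408 CPM in HMLE and 1230, 1307 and 1429 CPM in HMLE-TWIST1 under DMSO at day 2, with no overlap. Its log2 difference was 1.65 (SE 0.12, adjusted p = 3.76e-09), and it stayed between 1.49 and 1.80 under the other control treatments. Some of its reads are uncertain, since ITGB1P1 is a near copy and the level of ITGB1P1 ran with it across the groups. ITGA5 differed less, from 149, 158 and 177 CPM in HMLE to 227, 219 and 271 CPM in HMLE-TWIST1 under DMSO at day 2 (log2 0.55, SE 0.11, adjusted p = 0.00038). The ITGA5 difference was log2 0.69 (SE 0.12) at DMSO day 4, 1.01 (SE 0.05) at scramble day 2 and 1.19 (SE 0.07) at scramble day 4.

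ITGAV showed a difference that was large at day 2 and small at day 4. Under DMSO at day 2 it held 168, 136 and 143 CPM in HMLE and 415, 421 and 439 CPM in HMLE-TWIST1 (log2 1.50, SE 0.11, adjusted p = 4.23e-09). At DMSO day 4 the values were 277, 305 and 249 CPM in HMLE and 382, 486 and 409 CPM in HMLE-TWIST1 (log2 0.58, SE 0.10, adjusted p = 0.000146). The smallest difference was at scramble day 4, with 422, 412 and 389 CPM in HMLE and 491, 480 and 479 CPM in HMLE-TWIST1 (log2 0.25, SE 0.07, adjusted p = 0.00258). The groups did not overlap in any of the 3.

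ITGA11 was close to undetected in HMLE and plainly present in HMLE-TWIST1. The HMLE libraries held 2, 6 and 3 ITGA11 reads under DMSO at day 2, and 0, 2 and 1 reads at DMSO day 4. The HMLE-TWIST1 libraries held 100.4, 166 and 139 CPM, and 56.6, 119 and 64.4 CPM. Over the summed reads, ITGA11 was 511 times higher at DMSO day 2 (95% exact counting interval 285 to 1023, from 5058 against 11 reads) and 1157 times higher at scramble day 4 (496 to 3565, from 7540 against 5 reads). These intervals cover counting error only, and the fitted log2 differences of 8.19 to 9.17 depend on the prior count added to each library.

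ITGB3, which with ITGAV forms a vitronectin and fibronectin receptor known from platelets and osteoclasts, was low in both lines. In HMLE it had 0 to 9 reads a library outside DMSO day 2, where the 3 libraries held 9, 55 and 40 reads. HMLE-TWIST1 held 13.6, 15.0 and 10.3 CPM of ITGB3 under DMSO at day 2 and 11.7, 11.1 and 12.1 CPM at scramble day 4. Over the summed reads it was 5.05 times higher at DMSO day 2 (95% exact counting interval 4.08 to 6.31) and 24.4 to 51.3 times higher under the other control treatments. The HMLE DMSO day 2 libraries spread for CDH2 as well, from 2.56 to 11.1 CPM, and the part of that in the ITGB3 value was not tested. Without HMLE DMSO day 2 replicate 1 the log2 difference of ITGB3 fell from 2.52 to 1.78 (adjusted p = 9.17e-05).

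**Figure D2:**
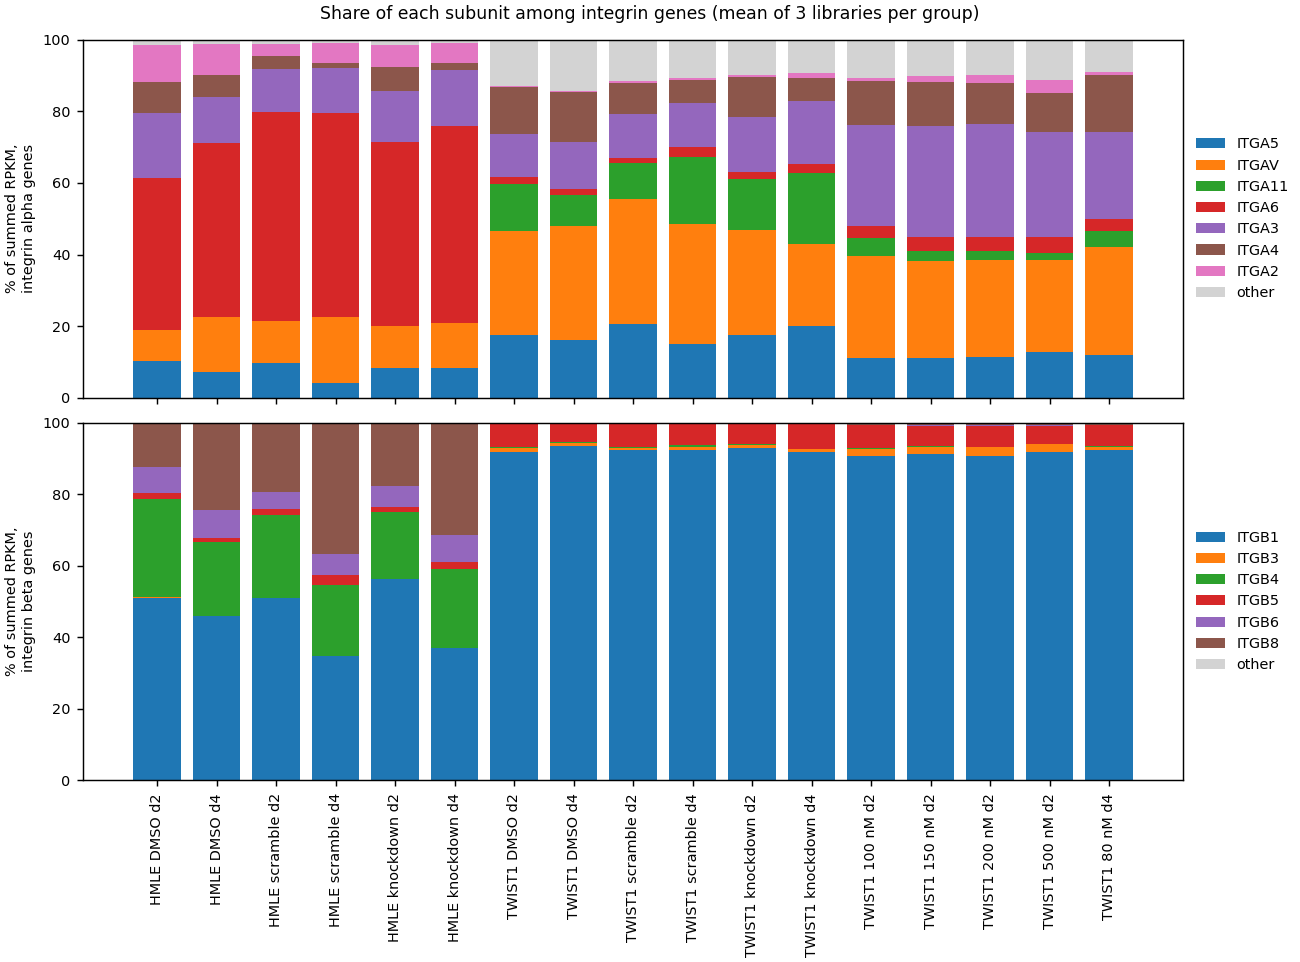
Mean share of the summed RPKM held by each integrin alpha gene (upper panel) and beta gene (lower panel), in percent, stacked for the 17 groups. ITGA6 filled 42.4 to 58.4% of the alpha sum in HMLE and 1.96% in HMLE-TWIST1 DMSO day 2, where ITGAV, ITGA5 and ITGA11 took 28.9, 17.6 and 13.2%.

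The set of integrin transcripts differed along with the levels. ITGB1 made up 34.8 to 56.1% of the summed beta chain RPKM over the HMLE groups and 90.7 to 93.5% over the HMLE-TWIST1 groups, and ITGB3 0.79 to 2.31% of it in HMLE-TWIST1. HMLE gave 18.7 to 27.4% to ITGB4, the beta chain of hemidesmosomes, and 12.2 to 36.5% to ITGB8, a partner of ITGAV. Among the alpha chains, ITGA6, which pairs with ITGB4 as a laminin receptor, led in HMLE. In HMLE-TWIST1 under DMSO at day 2, ITGA4, whose product with beta 1 also binds fibronectin, held 13.1%. At scramble day 4 in HMLE-TWIST1, ITGAV, ITGA5 and ITGA11 held 33.6, 14.9 and 18.9%. These shares are descriptions of transcript abundance, not of surface receptors.

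Chaetocin was compared with DMSO in HMLE-TWIST1 at day 2. FN1, ITGA5, ITGAV, ITGB1 and ITGA11 were lower at each of the 4 doses, and ITGB3 did not pass the test at any. Beside these 5 of 6, 23.7% of all genes tested were called at 100 nM (11.8% as lower and 11.9% as higher), rising to 34.3% for the 150 nM dose (16.5% and 17.8%), 40.0% for 200 nM (19.1% and 20.9%), and 50.7% for 500 nM (24.8% and 26.0%). The median log2 difference of the 6 genes was -1.19, -1.30, -1.32 and -1.42 at the 4 doses. The doses share their 3 DMSO libraries, and the deposited values show that the DMSO and dose libraries were processed as separate parts, so batch and treatment cannot be told apart in these 4 comparisons.

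FN1 held 4148, 9489 and 12591 CPM at 100 nM, 2934, 7289 and 10086 CPM at 150 nM, 2778, 5845 and 8561 CPM at 200 nM, and 3143, 4273 and 4803 CPM at 500 nM. All 12 libraries were below the lowest DMSO library, 20247 CPM, and replicate 1 was the lowest at each dose. At 500 nM FN1 was 5.66-fold lower (log2 -2.50, adjusted p = 0.000756). At 100 nM the FN1 difference of -1.51 (SE 0.49, adjusted p = 0.0389) passed narrowly, and 5 of the 6 fits without 1 library lost it, with adjusted p from 0.062 to 0.177. Those were the fits without 100 nM replicate 1 (-1.03, adjusted p = 0.177), 100 nM replicate 2 (-1.64, 0.062) and DMSO replicates 1, 2 and 3 (-1.58, -1.50 and -1.42, with adjusted p of 0.0733, 0.0832 and 0.0983). With replicate 1 of every dose left out, an alternative chosen after seeing the data, FN1 was lower by log2 -1.02 at 100 nM (adjusted p = 0.0067) and -2.30 at 500 nM, and the same 5 genes were called at each dose.

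ITGA5 was lower by about the same amount at every dose. It held 227, 219 and 271 CPM under DMSO, 90.0, 81.3 and 81.4 CPM at 100 nM and 88.7, 88.1 and 73.4 CPM at 500 nM. The log2 difference was -1.52 (SE 0.11, adjusted p = 3.6e-07) at 100 nM, -1.58 at 150 nM, -1.59 at 200 nM and -1.55 at 500 nM, a 2.92-fold lower level. These levels were also below every HMLE library outside scramble day 4. ITGB1 behaved likewise at a smaller size, from 1230, 1307 and 1429 CPM under DMSO to 807, 872 and 878 CPM at 100 nM and 747, 945 and 945 CPM at 500 nM, 1.54-fold lower (log2 -0.63, adjusted p = 0.000461).

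ITGAV went from 415, 421 and 439 CPM under DMSO to 220, 244 and 246 CPM at 100 nM and 215, 149 and 177 CPM at 500 nM, with no overlap with DMSO. It was lower by log2 -0.86 (SE 0.11, adjusted p = 7.36e-05) at 100 nM and by -1.28 (adjusted p = 3.22e-07) at 500 nM, a 2.43-fold lower level. ITGA11 held 7.93, 19.7 and 60.1 CPM at 100 nM and 7.01, 10.1 and 13.6 CPM at 500 nM, against a lowest DMSO library of 100.4 CPM. It was 13.5-fold lower at 500 nM (log2 -3.75, adjusted p = 0.00061). At 100 nM the ITGA11 difference of -2.65 (SE 0.72, adjusted p = 0.0162) was lost without DMSO replicate 2 (-2.47, adjusted p = 0.0546), without 100 nM replicate 1 (-1.95, 0.0802) and when these libraries were fitted alone (-2.62, 0.0525).

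ITGB3 held 15.2, 17.5 and 9.78 CPM at 100 nM and 13.9, 20.6 and 18.6 CPM at 500 nM, overlapping the DMSO libraries. Its log2 difference ran from 0.08 (95% interval -0.89 to 1.05, adjusted p = 0.922) at 100 nM to 0.41 (-0.56 to 1.38, adjusted p = 0.471) at 500 nM. An ITGB3 change of either sign up to those bounds is not resolved. TWIST1 itself averaged 550 CPM under DMSO and 450, 343, 310 and 233 CPM at the 4 doses, and the mesenchymal markers summed to 8886 to 9824 CPM under DMSO and 3991 to 4459 CPM at 500 nM. Single mesenchymal genes differed, with ZEB1 at 1010 CPM under DMSO and 426 CPM at 500 nM, VIM at 2449 and 2175 CPM, and CDH2 at 134 and 139 CPM. The epithelial markers summed to 153 to 189 CPM under DMSO and 96.5 to 270 CPM at 500 nM, which overlap. CDH1 and EPCAM were very low in both groups, with means of 0.0837 and 0.0257 CPM under DMSO and 2.43 and 1.13 CPM at 500 nM. The part of these in the values of the 6 genes was not tested.

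**Figure D3:**
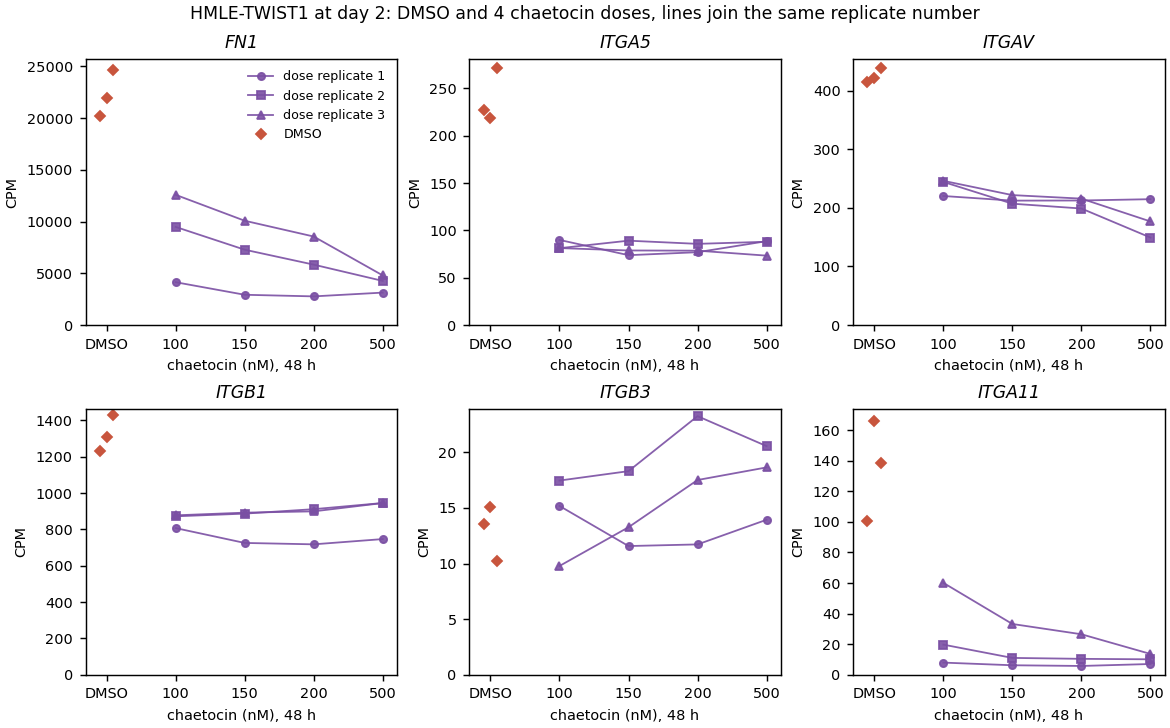
Level of the 6 genes in CPM (linear axis from 0) in HMLE-TWIST1 at day 2 under DMSO (diamonds) and 100, 150, 200 and 500 nM chaetocin, with 1 point per library and lines joining dose libraries of the same replicate number. FN1 and ITGA11 spread widely at 100 nM, with replicate 1 lowest, and narrowed by 500 nM, while ITGA5 and ITGB1 stayed level across the doses.

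Between neighbouring doses no member passed the test. Indeed 0 of 18801 genes were called by limma in each of the 3 steps, with 798, 273 and 1378 genes at an unadjusted p under 0.05, and 0 under every other setting run. Dose libraries of the same number deviated together (r from 0.50 to 0.85), which the main fit does not use. The fit with a replicate block also held DMSO libraries, whose numbers do not pair with those of the doses throughout. No paired test of a step on dose libraries alone was run, so these 0 calls do not show that neighbouring doses are alike. FN1 was lower in 3 of 3 same-numbered libraries from 100 to 150 nM, in 3 of 3 from 150 to 200 nM and in 2 of 3 from 200 to 500 nM. The ratio of the first step was 0.707, 0.768 and 0.801 in the 3 pairs. ITGA11 gave the same counts of 3, 3 and 2, ITGAV gave 3, 2 and 2, ITGA5 gave 2, 2 and 1, and ITGB1 gave 1, 1 and 0.

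A slope over the 4 doses was called for 16.4% of the genes tested (7.59% as lower and 8.83% as higher), and of the 6 genes for ITGAV alone. ITGAV declined by log2 -0.18 per doubling of the dose (SE 0.05, adjusted p = 0.0232), a call lost without replicate 2 or 3 of 100 nM (adjusted p = 0.0502 and 0.0582) or of 500 nM (0.127 and 0.0672). FN1 declined by -0.41 per doubling (SE 0.21, adjusted p = 0.19) and ITGA11 by -0.42 (SE 0.31, adjusted p = 0.37), both short of the threshold. The dose libraries deviated together by replicate number, and with that number as a block both passed, FN1 at adjusted p = 0.00335 and ITGA11 at 0.0305. The slopes of ITGA5 and ITGB1 were -0.01 and 0.02.

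The washout asked what a shorter exposure to 80 nM left behind after 48 h without the compound. FN1, ITGA5, ITGAV, ITGB1 and ITGA11 were lower than in DMSO cells of day 4, and ITGB3 did not pass. Beside these 5 of 6, 36.7% of the genes tested were called (17.3% as lower and 19.4% as higher), and the median log2 difference of the 6 genes was -0.73. FN1 held 8331, 14033 and 10373 CPM against 19842, 25406 and 20851 CPM under DMSO, 2.03-fold lower with no overlap (log2 -1.02, SE 0.18, adjusted p = 0.00231). ITGA5 held 93.9, 121 and 97.1 CPM against 180, 226 and 190 CPM (log2 -0.92, SE 0.12, adjusted p = 0.000162). Both groups of libraries were apart for each of these genes.

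ITGAV and ITGB1 differed less after the washout, by log2 -0.55 (SE 0.10, adjusted p = 0.000838) and -0.46 (SE 0.06, adjusted p = 8.14e-05). ITGA11 held 21.5, 42.5 and 26.5 CPM against 56.6, 119 and 64.4 CPM, a log2 difference of -1.37 (SE 0.35, adjusted p = 0.0131). The ITGA11 call was lost with a smaller prior count of 0.5 (adjusted p = 0.107) and when these libraries were fitted alone (0.0585). ITGB3 differed by -0.13 (95% interval -1.45 to 1.20, adjusted p = 0.895). TWIST1 averaged 542 CPM after the washout, above its 433 CPM under DMSO at day 4. The mesenchymal markers summed to 6305 to 7242 CPM after the washout, against 8147 to 9499 CPM under DMSO. Single mesenchymal genes went both ways, with VIM at 3531 against 2689 CPM and ZEB1 at 622 against 1030 CPM. The part of TWIST1 and the markers in these values was not tested. The dose and washout groups differ in both concentration and time, so no comparison was made between them.

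**Figure D4:**
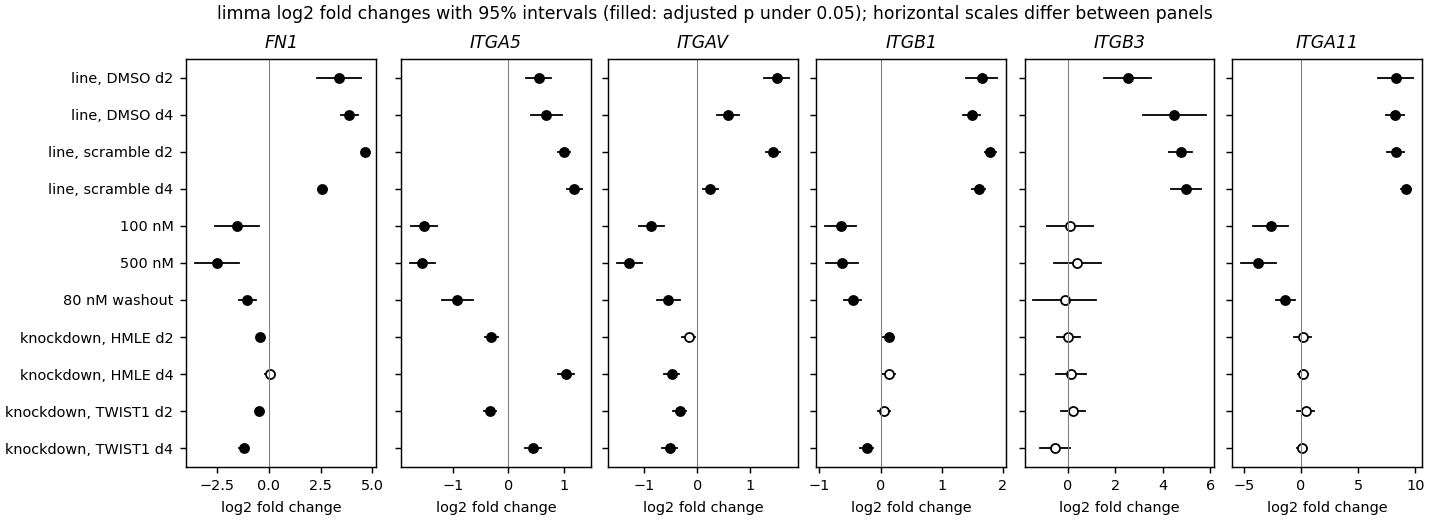
Fitted log2 fold change of each of the 6 genes with its 95% interval (limma) in 11 comparisons: the 4 between lines, 100 nM and 500 nM chaetocin, the washout, and the 4 knockdowns. Filled points had an adjusted p under 0.05 and the horizontal scales differ between panels. FN1 and ITGA5 were filled below 0 at both chaetocin doses and in the washout, and the sign of ITGA5 turned positive in both day 4 knockdowns.

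Knockdown of SUV39H1/H2 was compared with scramble siRNA in each line and at each time. At day 2, FN1 and ITGA5 were lower in both lines by similar amounts. At day 4, ITGA5 was higher and ITGAV lower in both lines, while FN1 was lower in HMLE-TWIST1 and did not pass in HMLE. In HMLE at day 2, 2 of the 6 genes were lower and 1 higher, beside 28.7% of the genes tested being called (14.7% as lower and 14.1% as higher). In HMLE at day 4, 1 was higher and 1 lower, beside 26.1% (14.4% as lower and 11.7% as higher). In HMLE-TWIST1, 3 were lower at day 2, beside 15.8% (8.26% as lower and 7.53% as higher), and 3 were lower and 1 higher at day 4, beside 38.0% (19.0% in each direction).

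FN1 in HMLE held 938, 1094 and 1038 CPM under scramble and 733, 735 and 778 CPM under knockdown at day 2 (log2 -0.42, SE 0.04, adjusted p = 2.48e-06). At day 4 it held 2469, 2954 and 2712 CPM under scramble and 2400, 2922 and 3269 CPM under knockdown, which overlapped (log2 0.06, SE 0.10, adjusted p = 0.732). In HMLE-TWIST1 it held 25708, 25121 and 24094 CPM under scramble and 18924, 17807 and 18722 CPM under knockdown at day 2 (log2 -0.44, SE 0.04, adjusted p = 2.12e-06). At day 4 the FN1 gap had widened, from 17315, 15688 and 15955 CPM under scramble to 7245, 7057 and 7176 CPM under knockdown, 2.30-fold lower (log2 -1.20, SE 0.10, adjusted p = 1.65e-06).

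ITGA5 in HMLE went from 148, 173 and 152 CPM under scramble to 124, 123 and 128 CPM under knockdown at day 2, which was lower (log2 -0.30, SE 0.05, adjusted p = 0.000351). At day 4 ITGA5 was on the other side, with 83.1, 97.8 and 79.0 CPM under scramble and 178, 184 and 177 CPM under knockdown, 2.06-fold higher (log2 1.04, SE 0.07, adjusted p = 2.73e-09). HMLE-TWIST1 showed the same turn, from 307, 305 and 308 against 242, 236 and 257 CPM at day 2 (log2 -0.33, SE 0.05, adjusted p = 0.000255) to 209, 191 and 192 against 266, 276 and 274 CPM at day 4, 1.36-fold higher (log2 0.45, SE 0.07, adjusted p = 4.2e-05). The libraries did not overlap in any of these 4 comparisons.

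ITGAV was lower under knockdown at day 4 in HMLE, with 422, 412 and 389 CPM under scramble and 264, 288 and 335 CPM under knockdown (log2 -0.48, SE 0.07, adjusted p = 2.88e-05). In HMLE-TWIST1 at day 4 the values were 491, 480 and 479 CPM and 333, 338 and 353 CPM, 1.43-fold lower (log2 -0.52, SE 0.07, adjusted p = 7.02e-06). At day 2 ITGAV was lower in HMLE-TWIST1 (log2 -0.33, SE 0.06, adjusted p = 0.000716), and in HMLE its difference of -0.16 missed the threshold (SE 0.06, adjusted p = 0.0551) but passed with size factor scaling (0.0216), with no filter on low counts (0.0239), and without scramble replicate 3 (0.0445) or knockdown replicate 2 (0.0135).

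ITGB1 moved little. It was lower at day 4 in HMLE-TWIST1 (log2 -0.23, SE 0.05, adjusted p = 0.00211). Its higher value at day 2 in HMLE (log2 0.14, SE 0.04, adjusted p = 0.0267) was lost with size factor scaling (0.10, adjusted p = 0.0997), with no filter (0.11, 0.0964), without scramble replicates 1 or 2 (0.101 and 0.0842) and without each knockdown replicate in turn (0.167, 0.269 and 0.122). In HMLE at day 4 ITGB1 missed the threshold (0.13, adjusted p = 0.0722) and passed with no filter (0.0331) or without knockdown replicate 1 (0.0131).

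ITGB3 and ITGA11 passed in no knockdown comparison of the full fit, which shares its spread with HMLE libraries that hold few reads of either. In HMLE-TWIST1, with the libraries of the comparison fitted alone, ITGA11 was higher at day 2 (log2 0.43, adjusted p = 0.000144, against 0.468 in the full fit). Its libraries went from 115, 107 and 115 CPM under scramble to 145, 150 and 160 CPM under knockdown. ITGB3 in HMLE-TWIST1 was lower at day 4 in such a fit (log2 -0.53, adjusted p = 0.000724, against 0.186), from 11.7, 11.1 and 12.1 CPM to 8.32, 8.60 and 7.39 CPM. The day 4 ITGA11 values of HMLE-TWIST1, 186, 188 and 189 CPM under scramble and 205, 204 and 200 CPM under knockdown, passed narrowly in that fit (adjusted p = 0.0489, against 0.741).

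The difference between the lines in the knockdown effect was tested as an interaction. At day 2 limma called it for 12.2% of all genes and for 0 of the 6, with 0 of the 6 at an unadjusted p under 0.05 and 0 under the other settings run. FN1 differed by -0.02 and ITGA5 by -0.03 between the lines at that time, and the smallest p-value was that of ITGAV (-0.17, adjusted p = 0.197). At day 4 it was called for 22.9% of all genes and for 3 of the 6. The effect on FN1 was lower in HMLE-TWIST1 than in HMLE by log2 -1.26 (SE 0.14, adjusted p = 6.75e-05), that on ITGA5 by -0.59 (SE 0.10, adjusted p = 0.000236) and that on ITGB1 by -0.36 (SE 0.07, adjusted p = 0.00192). For ITGAV the interaction was -0.03 (adjusted p = 0.838). TWIST1 averaged 477 CPM under scramble and 344 CPM under knockdown in HMLE-TWIST1 at day 4, the mesenchymal markers summed to 6198 to 6628 and 5253 to 5287 CPM, and the epithelial markers to 86.6 to 92.1 and 235 to 253 CPM. In HMLE at day 4, going from scramble to knockdown, the mesenchymal markers summed to 82.2 to 83.4 and 126 to 142 CPM, the epithelial markers to 24836 to 26241 and 20212 to 22957 CPM, and the adipocyte markers to 379 to 447 and 223 to 280 CPM. At day 2 the epithelial markers summed to 23700 to 25259 and 13694 to 14762 CPM in HMLE, and to 96.2 to 102 and 176 to 205 CPM in HMLE-TWIST1. The targets also differed between the lines at day 4. From scramble to knockdown, SUV39H2 averaged 6.86 and 4.82 CPM in HMLE and 42.7 and 24.6 CPM in HMLE-TWIST1. SUV39H1 averaged 3.41 and 1.82 CPM in HMLE and 9.43 and 4.57 CPM in HMLE-TWIST1. The part of the markers, TWIST1 and the targets in the knockdown values was not tested.

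Whether the knockdown effect itself differed between day 4 and day 2 was tested within each line, a test chosen after seeing the data. In HMLE it was called for 3 of the 6 genes, beside 17.6% of all genes: the effect was higher at day 4 by log2 0.46 for FN1 (adjusted p = 0.00591) and 1.33 for ITGA5 (adjusted p = 1.29e-11), and lower by -0.34 for ITGAV (adjusted p = 0.00917). The ITGAV call was lost without scramble day 4 replicate 1 (adjusted p = 0.0873), knockdown day 2 replicate 2 (0.109), knockdown day 4 replicate 1 (0.132) or knockdown day 4 replicate 2 (0.0775). In HMLE-TWIST1 it was called for 3 of the 6, beside 20.0%: -0.75 for FN1 (adjusted p = 4.14e-05), 0.79 for ITGA5 (adjusted p = 5.35e-08) and -0.27 for ITGB1 (adjusted p = 0.00275). The turn of ITGA5 from lower to higher under knockdown thus passed its own test in both lines, and the effect on FN1 moved in opposite directions in the 2 lines.

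**Figure D5:**
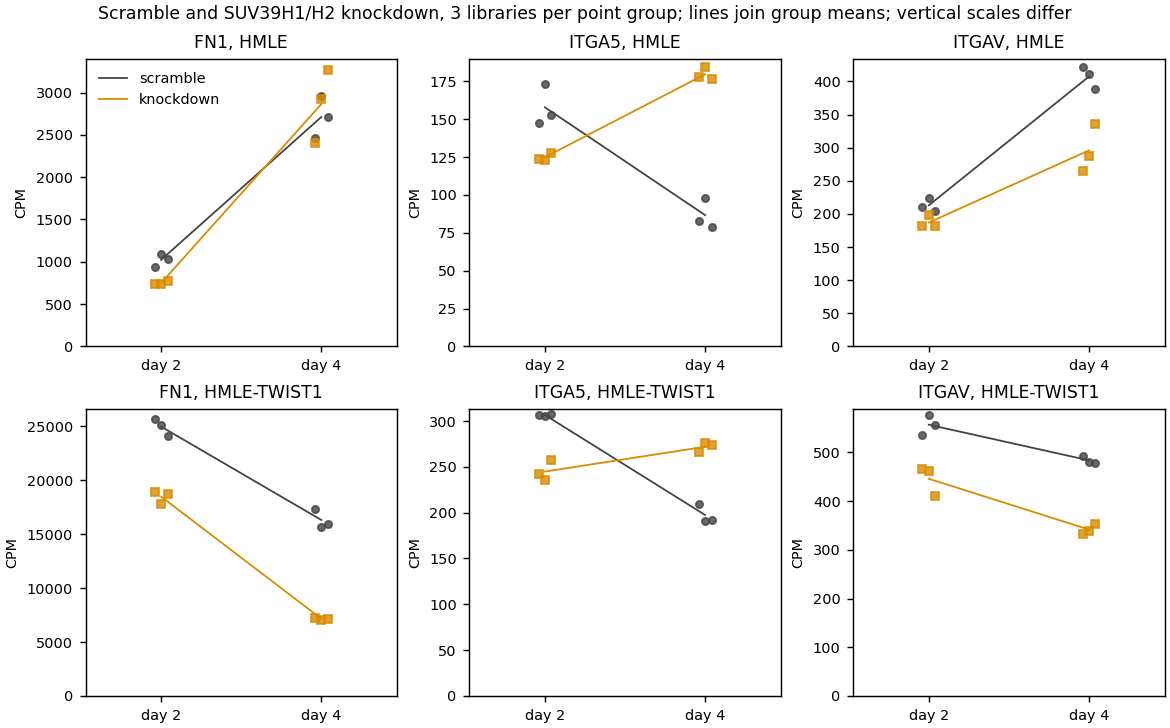
Level of FN1, ITGA5 and ITGAV in CPM under scramble siRNA and SUV39H1/H2 knockdown at day 2 and day 4, in HMLE (top) and HMLE-TWIST1 (bottom), with 1 point per library and lines joining group means. FN1 went up with time in HMLE and down in HMLE-TWIST1, and the ITGA5 lines of scramble and knockdown cross in both lines.

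Between day 2 and day 4 these genes also changed under scramble siRNA, in opposite directions for FN1 in the 2 lines. The 2 days differ in time, in the removal of the siRNA and in the medium change, which cannot be told apart. In HMLE, FN1 was higher at day 4 than at day 2 by log2 1.40 (SE 0.08) and ITGAV by 0.93 (SE 0.06), while ITGA5 was lower by -0.87 (SE 0.06), beside 42.3% of all genes being called. In HMLE-TWIST1, 4 of the 6 were lower at day 4, beside 29.1%: FN1 by -0.62, ITGA5 by -0.64, ITGAV by -0.21 (adjusted p = 0.0133, lost without scramble day 2 replicate 2 at 0.0697) and ITGB1 by -0.17 (adjusted p = 0.00548). The difference between the lines in this change, a test chosen after seeing the data, was -2.02 for FN1 (adjusted p = 2.2e-11) and -1.14 for ITGAV (adjusted p = 8.99e-11). It was called for 3 of the 6 genes, beside 34.4% of all genes, the third being ITGA5 at 0.23 (adjusted p = 0.0397). The ITGA5 call was lost with size factors (0.0566), with the deposited values (0.051) and in 7 fits without 1 library (0.0595 to 0.159), those without HMLE scramble day 2 replicate 2, HMLE scramble day 4 replicate 1 or 3, any HMLE-TWIST1 scramble day 2 replicate, or HMLE-TWIST1 scramble day 4 replicate 1. Over the same interval the summed mesenchymal markers went from 9921 to 10155 CPM down to 6198 to 6628 CPM in HMLE-TWIST1 and from 146 to 157 CPM down to 82.2 to 83.4 CPM in HMLE, and their part was not tested.

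Under knockdown, HMLE had 3 of the 6 genes higher at day 4 than at day 2, FN1 by log2 1.87, ITGA5 by 0.47 and ITGAV by 0.60, beside 46.9% of all genes called. HMLE-TWIST1 had 3 lower, FN1 by -1.37, ITGAV by -0.38 and ITGB1 by -0.44, beside 28.7%. ITGA11 in HMLE-TWIST1 scramble cells went from 115, 107 and 115 CPM at day 2 to 186, 188 and 189 CPM at day 4, which did not pass in the full fit (log2 0.74, SE 0.29, adjusted p = 0.0615) and passed with those libraries fitted alone (adjusted p = 1.2e-10).

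Between the DMSO groups the 2 times also differ in how long DMSO was present. In HMLE-TWIST1, 0 of the 6 genes were called by limma, beside 0.615% of all genes, with ITGA5 (-0.27) and ITGA11 (-0.80) at an unadjusted p under 0.05 and FN1 at -0.02. In HMLE, 2 were higher and 2 lower, beside 35.8%. ITGAV was higher by log2 0.91 (SE 0.10, adjusted p = 7.84e-07), and the other 3 calls depended on single libraries. FN1 missed the threshold (-0.52, adjusted p = 0.0663) and passed without DMSO day 2 replicate 1 (-0.72, adjusted p = 0.0122). ITGA5, lower by -0.41 (adjusted p = 0.0141), was lost without DMSO day 2 replicate 3 (0.0612) and DMSO day 4 replicate 1 (0.0752). ITGB1, higher by 0.18 (adjusted p = 0.0389), was lost in all 6 fits without 1 library (0.0507 to 0.118). ITGB3, lower by -2.36 (adjusted p = 0.0184), was lost without DMSO day 2 replicate 2 (0.0703) or 3 (0.0683) and without DMSO day 4 replicate 1 (0.0651) or 2 (0.0535). For ITGAV the day change differed between the lines under DMSO as well, by -0.92 (adjusted p = 0.000106, chosen after seeing the data). That was 1 of the 6 genes, beside 19.7% of all genes.

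The other genes of the pathway were taken from 5 lists: 15 further alpha chains, 6 further beta chains, 30 matrix ligands and matrix proteins, 41 adhesion adaptors and 15 surface partners. Beside the members, of 26 matrix genes tested between the lines at DMSO day 4, 20 were higher and 5 lower in HMLE-TWIST1, with a median log2 difference of 2.36, beside 33.5% of all genes higher, 33.4% lower and a median of 0.01. CYR61, a matricellular integrin ligand, was higher by 3.70 (SE 0.08), and FBLN5 and FBLN1, the fibulins of elastic and basement membrane matrix, by 9.49 (SE 0.19) and 4.21 (SE 0.10). Of 12 further alpha chains tested, 7 were higher, such as ITGA10 (5.83, SE 0.19) and ITGA1 (2.31, SE 0.10), both collagen receptor chains, and 4 lower, such as ITGA6 (-5.23, SE 0.09). Of 4 further beta chains, ITGB5, a partner of ITGAV, was higher (2.56, SE 0.10) and 3 were lower, among them ITGB6 (-7.68, SE 0.34), the epithelial partner of ITGAV, and ITGB4 (-5.48, SE 0.26).

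Of 38 adhesion adaptors 19 were higher and 12 lower, beside the 33.5% and 33.4% of all genes. The smallest p-values belonged to lower genes: FERMT1, the epithelial kindlin (-4.66, SE 0.10), SDC4, a syndecan that binds fibronectin beside alpha 5 beta 1 (-3.39, SE 0.09), and TNS4 (-10.08, SE 0.36). Of 14 surface partners 4 were higher and 9 lower, with SDC2 higher (9.18, SE 0.16) and SDC1 (-4.84, SE 0.09) and the tetraspanin CD9 (-2.88, SE 0.07) lower.

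At 500 nM chaetocin, 16 of 27 matrix genes tested were lower and 4 higher, with a median log2 difference of -1.22, beside 24.8% of all genes lower, 26.0% higher and a median of 0.02. COL5A1, a fibrillar collagen chain, was lower by -2.85 (SE 0.27) and FBLN1 by -1.89 (SE 0.21), while VWF, an endothelial and platelet adhesion protein, was higher by 2.90 (SE 0.31). Of 12 alpha chains 3 were higher and 4 lower, a share near that of all genes, with ITGA1 at -1.58 (SE 0.18) and, in the other direction, ITGA9 at 3.72 (SE 0.42) and the leukocyte chain ITGAM at 4.81 (SE 0.51). Of 38 adaptors 16 were lower and 4 higher, in sum near the 50.7% of all genes called, and those with the smallest p-values were PTK2B, a focal adhesion kinase family member (-2.62, SE 0.23), TNS3 (-1.63, SE 0.15) and PARVA (-1.18, SE 0.14). ITGB5 (-0.97, SE 0.14), ITGB4 (-1.71, SE 0.30), CD81 (-1.05, SE 0.11), CD151 (-0.74, SE 0.08) and HSPG2 (-1.80, SE 0.22) were lower too, and ITGB2, the leukocyte beta chain, was higher (2.10, SE 0.57). Both ITGB2, at 0.0267 RPKM under DMSO and 0.237 at 500 nM, and ITGB4, at 0.611 and 0.169 RPKM, were low throughout.

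After the washout, 15 of 26 matrix genes were lower and 4 higher (median -1.0), beside 17.3% and 19.4% of all genes (median 0.01), with FBLN1 at -1.64 (SE 0.10) and FBLN5 at -1.77 (SE 0.19), and ADAM15 higher at 0.87 (SE 0.08). Of 38 adaptors 11 were higher and 4 lower, a share near that of all genes, such as CAV1, the coat protein of caveolae (0.90, SE 0.08), against PTK2B (-2.18, SE 0.14) and NEDD9 (-1.04, SE 0.13). Of 12 alpha chains 6 were higher and 3 lower, with ITGA1 (-1.24, SE 0.10) and ITGA10 (-2.03, SE 0.19) lower and ITGAM higher (3.97, SE 0.34). Among beta chains ITGB4 alone was called (-1.81, SE 0.26), at a low level of 0.775 RPKM under DMSO and 0.197 after the washout. CD44, a hyaluronan receptor, was higher (0.68, SE 0.08), and CD81 (-0.59, SE 0.09) and HSPG2 (-1.15, SE 0.15) were lower.

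Under knockdown at day 4 in HMLE-TWIST1, 14 of 25 matrix genes were lower and 1 higher (median -0.27), beside 38.0% of all genes called, 19.0% in each direction. They included FBN2, a microfibril protein (-2.11, SE 0.07), TNC, tenascin C (-1.30, SE 0.08), and CYR61 (-1.04, SE 0.08). In HMLE at day 4, 7 were higher and 5 lower (median 0.06), beside 11.7% and 14.4% of all genes, with POSTN, periostin, at 0.94 (SE 0.12), FBN2 at -0.47 (SE 0.07) and TNC at -0.40 (SE 0.08). Among the alpha chains ITGA3, a laminin receptor chain, was higher in HMLE (0.38, SE 0.08) and in HMLE-TWIST1 (0.51, SE 0.08), ITGA4 was higher in HMLE (0.76, SE 0.07), and ITGA2, a collagen receptor chain, was higher in HMLE-TWIST1 (1.70, SE 0.08) where ITGA10 was lower (-0.91, SE 0.20). In HMLE-TWIST1 the beta chains ITGB8 (0.62, SE 0.10) and ITGB6 (0.87, SE 0.20) were higher and ITGB4 lower (-1.05, SE 0.12), and in HMLE ITGB5 alone was called (-0.40, SE 0.08). The levels in HMLE-TWIST1 were low, with ITGB6 at 0.0227 RPKM under scramble and 0.0624 under knockdown. ITGB8 held 0.467 and 0.726 RPKM and ITGB4 0.622 and 0.293, against 190 RPKM for ITGB1 under scramble.

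Adaptors and surface partners held calls in both directions at day 4 under knockdown. The shares of all genes called were 38.0% in HMLE-TWIST1 and 26.1% in HMLE. In HMLE-TWIST1, 7 of 38 adaptors were higher, such as TNS1 (1.42, SE 0.11), and 16 lower, such as FLNA, the actin crosslinker filamin A (-0.79, SE 0.06), and PARVA (-0.91, SE 0.07). In HMLE, 11 were higher, such as PTK2B (0.68, SE 0.08) and TNS3 (0.44, SE 0.05), and 6 lower, such as DOCK1 (-0.56, SE 0.05). CD44 was lower and CD47, an ITGAV and ITGB3 partner, higher in both lines, CD44 by -0.48 (SE 0.04) in HMLE and -0.61 (SE 0.04) in HMLE-TWIST1, and CD47 by 0.51 (SE 0.05) and 0.60 (SE 0.05). TGM2, a transglutaminase that binds fibronectin, was higher in HMLE (1.42, SE 0.20), and LOX, a collagen crosslinking enzyme, was lower in HMLE-TWIST1 (-0.76, SE 0.08).

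Likeness across the 17 group means was measured by Pearson's r of log2 levels over 11844 genes (11845 for ITGB3), as a description in which the groups share lines and batches. The genes most like FN1 were TAGLN, an actin binding protein of smooth muscle (r = 0.985), GALNT10 (0.964) and THBS1, thrombospondin 1 (0.964). ITGA5 was most like COLGALT1 (0.945), PLBD2 (0.930) and ATP13A1 (0.925), and ITGAV most like TIMP2, a metalloproteinase inhibitor (0.960), A1BG-AS1 (0.934) and MRC2 (0.929). ITGB1 was most like its near copy ITGB1P1 (0.995), then FMNL3 (0.989) and COL1A2 (0.988). ITGB3 was most like FLI1 (0.987), SLC7A2 (0.986) and CDH2, N-cadherin (0.985), and ITGA11 most like PLXND1 (0.990), LHFP (0.988) and CADM3 (0.988).

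Among the members themselves, FN1 and ITGB1 had r = 0.936 and ITGB1 and ITGA11 r = 0.977 over the 17 groups, while ITGA5 and ITGB3 had r = 0.0598. Over the 11 HMLE-TWIST1 groups alone, ITGB3 ran against each other member, with r from -0.562 to -0.718, and the other pairs had r from 0.760 to 0.948. The chaetocin doses held low values of the other members and the highest group means of ITGB3, with single libraries up to 23.2 CPM. Their ITGB3 libraries overlapped those of DMSO day 2, from 9.78 CPM at 100 nM against up to 15.0 CPM under DMSO. ITGB3 passed the test at no dose, and the doses were processed as a separate part. The negative r of ITGB3 thus rests on a difference that is not resolved.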

How the data were processed

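Total RNA of 51 libraries was depleted of ribosomal RNA and sequenced with strand information, per the labels' protocols. STAR, HTSeq and the builds hg19 and GRCh37 are named in the submitters' processing notes, with no versions. The authors deposited log2 RPKM values for 24033 genes. The steps between low values, and the genes listed, show 3 separately made parts (DMSO with washout, doses, and siRNA). Scramble and knockdown, and DMSO and washout, were compared within a part, and the doses were compared with DMSO across parts. Whole reads were recovered from the deposited log2 values, in which 100% were within 0.001 of a whole number (largest distance 4.2e-08). Genes of differing length between parts (3) were dropped where parts were joined, and 81 unnamed columns of whole numbers in a second deposited table were not used.

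Reads per library ranged from 7897045 to 15662385. A gene was tested where 3 or more libraries reached 10 reads, scaled to library size, with a sum of 15 or more. Libraries were scaled by trimmed means of M values (30% of ratios and 5% of levels trimmed). Values were put on log2 CPM with a prior count of 2 and fitted with limma 3.58.1 (trend and robust options, statmod 1.5.0, R 4.3.3). P-values were adjusted by Benjamini-Hochberg over all genes tested, with a threshold of 0.05. All 6 members passed this filter in every comparison, ITGA11 and ITGB3 only through the HMLE-TWIST1 libraries of each fit. The tests were checked on simulated data. No count model was run on the recovered reads.

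The members and lists were chosen with earlier results of these data known. Genes named were the 6 members, and from each list the 3 past the threshold with the smallest adjusted p in the line comparison at DMSO day 4, 500 nM, the washout and the knockdown of each line at day 4, plus the 3 most like each member by Pearson's r over the group means, with a mean log2 CPM of at least 2. TWIST1, SUV39H1 and SUV39H2 were label checks. Same-numbered libraries deviated together between the lines under DMSO at day 2 (r from 0.14 to 0.18) and day 4 (0.11 to 0.19) and between the doses (0.50 to 0.85), and not throughout elsewhere. Alternatives were size factors, no filter, a prior count of 0.5, the deposited values as they stand, precision weights, a replicate block, the libraries of a comparison alone, and each library left out in turn. Added after seeing the data were the differences of differences and the doses without replicate 1.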

Additional observations from a re-analysis of the deposited data

Results flagged for a closer look

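All of these are differences between 2 groups in the same contrast, each tested as an interaction in limma with Benjamini-Hochberg adjustment. The effect of the SUV39H1/H2 knockdown at day 4 was lower in HMLE-TWIST1 than in HMLE by log2 -1.26 for FN1 (adjusted p = 6.75e-05), by -0.59 for ITGA5 (adjusted p = 0.000236) and by -0.36 for ITGB1 (adjusted p = 0.00192).

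The change from day 2 to day 4 under scramble siRNA was lower in HMLE-TWIST1 than in HMLE by -2.02 for FN1 (adjusted p = 2.2e-11) and by -1.14 for ITGAV (adjusted p = 8.99e-11), and under DMSO by -0.92 for ITGAV (adjusted p = 0.000106). For ITGA5 it was higher by 0.23 under scramble (adjusted p = 0.0397), a call lost with size factors (0.0566), with the deposited values (0.051) and without any of 7 single libraries (0.0595 to 0.159): HMLE scramble day 2 replicate 2, HMLE scramble day 4 replicates 1 and 3, HMLE-TWIST1 scramble day 2 replicates 1, 2 and 3, and HMLE-TWIST1 scramble day 4 replicate 1.

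The knockdown effect differed between day 4 and day 2 in HMLE by 0.46 for FN1 (adjusted p = 0.00591), 1.33 for ITGA5 (adjusted p = 1.29e-11) and -0.34 for ITGAV (adjusted p = 0.00917). In HMLE-TWIST1 it differed by -0.75 for FN1 (adjusted p = 4.14e-05), 0.79 for ITGA5 (adjusted p = 5.35e-08) and -0.27 for ITGB1 (adjusted p = 0.00275). The tests of time were chosen after seeing the data.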

How the results depend on the processing

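The calls of FN1, ITGA5, ITGAV and ITGB1 between the lines under each control treatment kept their direction and threshold under every setting run. So did the 5 lower genes at 150, 200 and 500 nM, and the knockdown calls of FN1, ITGA5 and ITGAV at day 4. The line calls of ITGA11 and ITGB3 held too, but their direction was largely fixed by the requirement for reads, so this adds little. Depth limits ITGA11 and ITGB3 in HMLE, and with 3 libraries a group small differences are not resolved. Over all comparisons, precision weights moved 8 results of the members past the threshold and lost 1. The libraries of the comparison alone moved 12 past it and lost 4, and not all of these are named here. The count of genes with a dose slope was 2959, and 6640 with the replicate block. For day 4 against day 2 in HMLE-TWIST1 under DMSO it was 113, against 32 with the deposited values, 240 with the replicate block and 60 with the libraries alone. The block also moved FN1's dose slope (-0.41, adjusted p = 0.00335) and the change of FN1 with time in DMSO HMLE (-0.52, adjusted p = 0.0232) past the threshold. It did the same for ITGA11 in the slope (0.0305) and in the change with time in DMSO HMLE-TWIST1 (0.00913) and scramble HMLE-TWIST1 (0.0288). ITGA11 also passed for the change with time in DMSO HMLE (0.000503) and the line difference of the scramble change (0.97, adjusted p = 0.0373). Those 2 rest on few HMLE reads, 11 at DMSO day 2, 3 at DMSO day 4, 8 at scramble day 2 and 5 at scramble day 4, and are not resolved. ITGAV passed with the block in the HMLE knockdown at day 2 (0.0212). The block changed no other call of a member. Beyond the doses and the DMSO lines the numbers do not pair the libraries.

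Signs turned only where no call had been made, and the cause was not tested. Without replicate 1 of the doses, ITGA5 and ITGB1 gave 0.040 and 0.019 from 100 to 150 nM, and ITGA5 and ITGB3 gave -0.028 and -0.040 from 200 to 500 nM, while FN1's slope passed (-0.55, adjusted p = 0.00366). With size factors, ITGA5 gave 0.0020 from 150 to 200 nM, the knockdown interaction at day 2 gave 0.011 for FN1 and 0.0055 for ITGA5 (0.012 and 0.0062 with no filter), ITGB1 gave 0.022 for time in HMLE knockdown cells, and the HMLE knockdown effect at day 4 minus day 2 gave 0.024 for ITGB1 and 0.0048 for ITGA11. The line difference of ITGA11's change under DMSO was 0.59 with a prior count of 0.5 and 0.24 with precision weights. FN1's change with time in DMSO HMLE passed with the deposited values (-0.54, adjusted p = 0.0382) and the libraries alone (-0.59, 0.0226).

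Leaving out 1 library at a time gave these ranges. At 100 nM, FN1 ran from -1.85 to -1.03 and ITGB3 from -0.0905 to 0.31, and at 150 nM ITGB3 from -0.0692 to 0.27. From 100 to 150 nM, FN1 ran from -0.88 to 0.12, ITGA5 from -0.14 to 0.00085, ITGB1 from -0.0892 to 0.0681, ITGB3 from -0.19 to 0.21 and ITGA11 from -1.39 to 0.0809. From 150 to 200 nM, FN1 ran from -0.74 to 0.24, ITGA5 from -0.0732 to 0.0712, ITGB1 from -0.0989 to 0.13 and ITGA11 from -0.77 to 0.49. From 200 to 500 nM, ITGB1 ran from -0.0652 to 0.18, ITGB3 from -0.22 to 0.28 and ITGA11 from -0.75 to 0.35. The slope of ITGA5 ran from -0.030 to 0.0297 and that of ITGB1 from -0.013 to 0.062. In the washout ITGB3 ran from -0.30 to 0.089.

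For the HMLE knockdown at day 2, ITGB3 ran from -0.15 to 0.13 and ITGA11 from -0.17 to 0.57, and at day 4, FN1 from -0.041 to 0.18, ITGB3 from -0.16 to 0.49 and ITGA11 from -0.11 to 0.40. The interaction at day 2 ran from -0.056 to 0.040 for FN1, -0.055 to 0.035 for ITGA5 and -0.13 to 0.61 for ITGA11, and at day 4 from -0.11 to 0.056 for ITGAV and -0.30 to 0.21 for ITGA11. The HMLE knockdown effect at day 4 minus day 2 ran from -0.035 to 0.099 for ITGB1, -0.15 to 0.46 for ITGB3 and -0.39 to 0.30 for ITGA11. With time, ITGB3 in HMLE scramble ran from -0.19 to 0.30, and in HMLE knockdown ITGB1 from -0.060 to 0.077, ITGB3 from -0.12 to 0.50 and ITGA11 from -0.62 to 0.036. Under DMSO with time, FN1 ran from -0.72 to -0.36 in HMLE and from -0.13 to 0.053 in HMLE-TWIST1, where ITGAV ran from -0.10 to 0.067 and ITGB1 from -0.034 to 0.077. The line difference of ITGA11's change under DMSO ran from -0.37 to 0.16.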
